A study of Mus musculus with 2 samples.

Results

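Antioxidant genes governed by NRF2 were followed in liver of PiZ mice, together with the enzymes that make and recycle glutathione, thioredoxin and NADPH. The list held 48 genes. Members were the genes that the platform annotation names alone on a probe set, and this rule found 41 of the 48 among 30142 genes named in this way. Gclm, Prdx1 and Tkt were present only in probe sets that also name another gene, so their values are given separately. No probe set was listed under Ggt1, Prdx5, Prdx6 or G6pdx in the annotation used, and these genes are not analysed here. Glutathione transferases were left out by the rule.

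PiZ mice are C57BL/6 animals that carry the human gene and promoter for ATZ, the Z mutant of alpha-1-antitrypsin, a secreted protease inhibitor of hepatocytes. Mutant protein polymerises in the endoplasmic reticulum of hepatocytes and collects there as globules. Every sample came from such mice, untreated, on standard chow and killed at 3 months of age, and no liver without the transgene was included. Areas with globules and areas without them were cut by laser from frozen sections stained with Cresyl Violet, so both groups were chosen by morphology in the same kind of animal. Each group is 1 array of RNA pooled from 2 mice, amplified from 50 ng, and the sources used here do not say whether the same mice gave both pools. Fewer cells of a type and less RNA per cell cannot be told apart in such areas.

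NRF2, the product of Nfe2l2, is a transcription factor that KEAP1 holds in the cytosol and hands to the proteasome through a ubiquitin ligase. Oxidants and electrophiles modify KEAP1, NRF2 then escapes degradation, pairs with a small MAF protein in the nucleus and binds antioxidant response elements (AREs) near its targets. Those targets supply cysteine and glutathione, reduce thioredoxin, generate NADPH and detoxify quinones, epoxides and carbonyls. Hepatocytes carry a high load of such reactions, because they oxidise drugs, fatty acids and bile acids.

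Values are log2 signals, and a difference is globule-containing minus globule-free, so that 1 unit is 2-fold. With 1 array in each group no test was possible: no p-value or standard error exists for any gene, and every difference describes these 2 arrays rather than the spread between mice. Counts were taken over genes whose mean of both arrays reached a floor of 4.76. A signal was treated as background at or below 4.85 on the globule-containing and 5.02 on the globule-free array, where olfactory and vomeronasal receptor genes lie, and a fold against background is written as "at least". Signals from 19.73 (globule-containing) and 19.60 (globule-free) upward were treated as saturated. The only error that the arrays themselves offer comes from 177 genes with 2 probe sets, whose differences lay a median of 0.17 apart.

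The Nfe2l2 transcript and those of a set of NRF2 targets had higher signals where globules were present. The targets were led by the cystine importer Slc7a11, sulfiredoxin (Srxn1), the quinone reductase Nqo1, glutathione reductase (Gsr) and the carbonyl reductase Cbr3. Of the 39 members above the floor, 11 were higher by 2-fold or more and none was lower by that much. Over all 15023 genes above the floor these shares were 6.47% (higher) and 5.26% (lower), against 28.2% higher among the 39. A positive difference of any size was seen for 31 of the 39, against 54.5% of all genes. A difference of 4-fold or more was reached by 5 members upward, against 1.42% of all genes. Of these, Gsr and Cbr3 fell short of 4-fold under 3 rescalings of the arrays. The members' median difference was 0.50 above the floor and 0.36 over all 41, against 0.05 over all genes above the floor and -0.06 without it. Slc7a11 and Nqo1 were at background in globule-free areas. Slc7a11 and Sod3 had globule-free signals under the floor and passed it through their globule-containing signals. The remaining 28 members above the floor lay within 2-fold, among them catalase, the superoxide dismutases, the glutathione peroxidases and every measured peroxiredoxin, with Gpx1 and Sod1 near or at saturation. Markers of macrophages (7 of 12) and of stellate cells and fibroblasts (11 of 13) were higher by 2-fold or more on the same array, and their part in these counts was not tested.

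**Figure D1:**
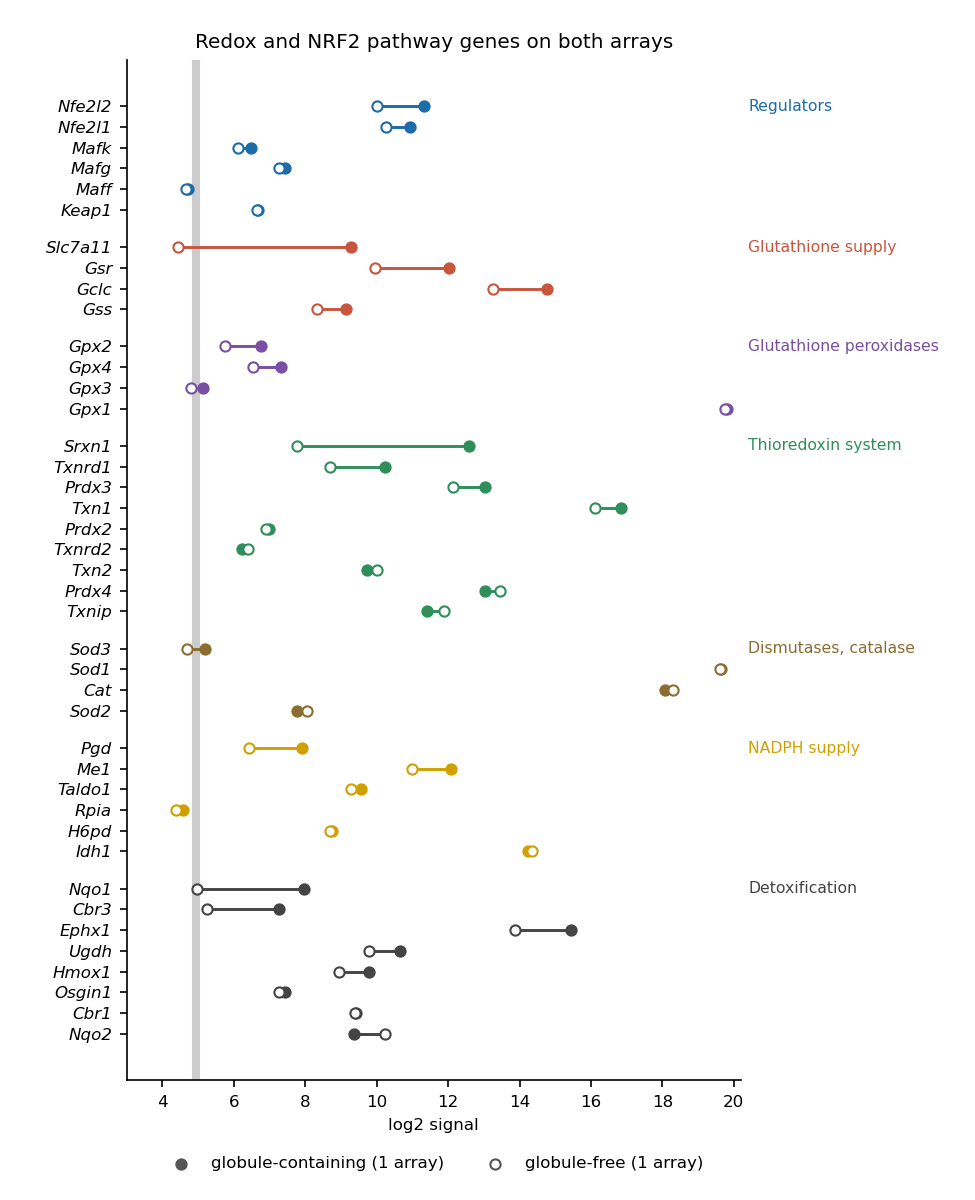
Log2 signal (horizontal axis) of the 41 genes in globule-containing (filled) and globule-free (open) areas, 1 array each, grouped by role; the grey band spans the background levels of both arrays, 4.85 and 5.02. The long bars belong to Slc7a11, Srxn1, Nqo1, Gsr and Cbr3, and the glutathione supply genes all have the filled point on the right.

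Promoter stretches are shown for some of the members that carry the response element or related letters, because NRF2 is known to bind such elements. Most of those shown were at least 2-fold higher. ARE core or AP-1 type letters also lie in members within 2-fold that are not printed. Among these are Nqo2 (-0.85), Osgin1 (0.16), Sod1 (0.01), Mafg (0.17), Mafk (0.36) and Ugdh (0.88). Slc7a11, whose windows hold no ARE core match, is shown for other letters. They come from RefSeq windows on GRCm38.p6 that run from 250 bases before to 50 bases after each annotated start, read 5′ to 3′ on the gene's strand, and capitals mark the matched letters. In Srxn1 (chr2:152105409-152105523, plus strand) and Prdx1 (chr4:116685354-116685483, plus strand) the capitals include TGANTCA, the AP-1 type letters that many AREs contain. For Txnrd1 (chr10:82859086-82859185, plus strand), Me1 (chr9:86695912-86695974, minus strand) and Nfe2l2 (chr2:75704834-75704913, minus strand) they mark the ARE core TGACNNNGC. In Slc7a11 (chr3:50443614-50443713, minus strand) they mark TGATGCAA, letters of the amino acid response element bound by ATF4, which were searched for after the sequence had been seen.
Srxn1: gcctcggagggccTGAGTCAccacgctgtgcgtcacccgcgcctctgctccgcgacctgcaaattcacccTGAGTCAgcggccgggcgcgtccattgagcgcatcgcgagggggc
Txnrd1: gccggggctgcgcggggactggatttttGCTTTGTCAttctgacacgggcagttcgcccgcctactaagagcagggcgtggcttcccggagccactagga
Me1: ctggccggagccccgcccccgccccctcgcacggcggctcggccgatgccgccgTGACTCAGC
Nfe2l2: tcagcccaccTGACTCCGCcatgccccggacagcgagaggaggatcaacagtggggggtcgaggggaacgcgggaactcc
Prdx1: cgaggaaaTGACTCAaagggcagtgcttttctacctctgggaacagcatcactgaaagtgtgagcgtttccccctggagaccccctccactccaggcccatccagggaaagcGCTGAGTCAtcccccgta
Slc7a11: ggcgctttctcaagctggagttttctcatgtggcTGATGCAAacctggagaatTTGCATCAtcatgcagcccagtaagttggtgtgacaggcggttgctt

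Promoter windows were found for 43 of the 48 listed genes, with 61 windows in all. TGACNNNGC, searched on both strands, was in 16 of these 61 windows (26.2%), against 12.4% of all 32851 windows in the table. Among genes with a single window, 9 of 34 members held it, against 12.3% of all such genes. The longer TGACTCAGC, which contains both the ARE core and the AP-1 letters, was in 2 member windows, Prdx1 and Me1, against 0.454% of all windows. TGANTCA was in 5 of the 61 windows (8.2%), a share near the 7.81% of all windows. TGATGCAA lay in 1 member window, that of Slc7a11, on both strands, against 0.895% of all windows. Of 9 members above the floor with the ARE core letters, 5 were at least 2-fold higher (Srxn1, Txnrd1, Pgd, Nfe2l2 and Me1). Of 26 with a window but without them, 4 were (Slc7a11, Nqo1, Ephx1 and Cbr3). Over all genes above the floor the share was 6.47%. It was not computed for all genes with the letters, and the members were listed as NRF2 pathway genes. A link between the letters and the differences was therefore not tested. In Srxn1 and Pgd the core match lay after the start, at positions 29 to 37 and 4 to 12. A match is only a run of letters, and windows of this length miss elements further upstream.

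Among the regulators, Nfe2l2 differed most. Its signal was 11.31 with globules and 10.00 without, a difference of 1.31 or 2.49-fold. Nfe2l1, which encodes the related factor NRF1 that drives proteasome genes, had 10.93 against 10.25, a difference of 0.68. Keap1, the NRF2 inhibitor, had 6.68 against 6.64. The inhibitor's signal thus differed by 0.04, and all 3 rescalings of the arrays turned this sign, to as low as -0.07. Small MAF proteins are the partners with which NRF2 binds DNA. Mafg had 7.43 against 7.26 and Mafk 6.48 against 6.12. Maff, at 4.72 against 4.65, was at background on both arrays, and no fold is given.

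All 4 measured genes of glutathione supply had a positive difference, with a median of 1.80. Slc7a11, the light chain of the exchanger that brings in cystine for glutathione synthesis, had 9.27 in globule-containing areas. Its signal in globule-free areas was 4.43, at background, which makes it at least 19.1-fold higher. Gsr, which returns oxidised glutathione to its reduced form with NADPH, had 12.03 against 9.94, a 4.25-fold difference. Under 3 rescalings of the arrays its difference was 1.93 to 1.98, short of 4-fold. Gclc, the catalytic subunit of glutamate-cysteine ligase and the rate-limiting enzyme of glutathione synthesis, had 14.76 against 13.25, or 2.84-fold. Gss, which adds glycine in the last step of synthesis, had 9.14 against 8.33, a difference of 0.81. Gclm, the modifier subunit of the ligase, did not share the size of the Gclc difference on the single probe set that holds it. That probe set also names Gm6061 and had 11.61 against 11.50, a difference of 0.11.

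Glutathione peroxidases, which spend glutathione on peroxides, had a median difference of 0.55. Gpx2, the form known from gut epithelium and a known NRF2 target, had 6.76 against 5.76, just under the 2-fold line. Gpx4, which reduces lipid peroxides in membranes, had 7.31 against 6.54, a difference of 0.77. Gpx3, the secreted form, had 5.13 against a background signal of 4.81. Gpx1, the abundant cytosolic form in hepatocytes, was saturated on both arrays at 19.82 and 19.76, so these arrays give no fold for it.

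The thioredoxin system split by gene rather than moving as a block, with a median of 0.09 over 9 members. Srxn1, the enzyme that repairs over-oxidised peroxiredoxins, had 12.57 with globules and 7.77 without. It was 27.9-fold higher. Txnrd1, the cytosolic reductase of thioredoxin, had 10.23 against 8.68, or 2.93-fold. Its substrate Txn1, cytosolic thioredoxin, had 16.83 against 16.12, a difference of 0.71. Both mitochondrial counterparts had signs the other way: Txn2 had 9.72 against 10.00, and Txnrd2 had 6.24 against 6.40. The Txnrd2 difference of -0.16 is no larger than the median gap between probe sets of 1 gene. Txnip, which binds and inhibits thioredoxin and responds to glucose, had 11.40 against 11.89, a difference of -0.49.

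Peroxiredoxins, the thiol peroxidases that thioredoxin serves, all lay within 2-fold. Prdx3, the mitochondrial form, had 13.03 against 12.13, a difference of 0.91. Prdx2, a cytosolic form, had 6.98 against 6.89, a difference of 0.09. This became -0.01 with each array centred on the median of its genes above the floor, and -0.04 with the shared probe set averaged in. For Prdx4, the form in the endoplasmic reticulum, the signals were 13.03 and 13.44, a difference of -0.41. Prdx1, a cytosolic form, shared its probe set with Gm21399 and had 15.03 against 14.85. That shared probe set, which names Prdx2 together with Junb, had 5.69 against 5.87.

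Superoxide dismutases and catalase showed no member at least 2-fold apart, and their median was -0.11. Sod1, the cytosolic copper and zinc dismutase, had 19.63 against 19.62, with the globule-free signal saturated, so that no fold is read from it. Sod2, the mitochondrial manganese dismutase, had 7.76 against 8.06. Sod3, the extracellular form, had 5.18 against a background signal of 4.69, at least 1.12-fold higher. Cat, the peroxisomal catalase, had 18.06 against 18.30, a difference of -0.24. Across the 326 genes with a mean signal of 16 or more, only 2.76% were at least 2-fold higher, and Sod1, Cat, Gpx1 and Txn1 are among these genes.

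Of the 5 NADPH suppliers above the floor, Pgd and Me1 (40.0%) were at least 2-fold higher, against 6.47% of all genes. Pgd, which makes NADPH in the oxidative branch of the pentose phosphate pathway, had 7.90 against 6.41, or 2.81-fold. Me1, the cytosolic malic enzyme, had 12.09 against 10.99, or 2.14-fold, and fell short of 2-fold under 3 rescalings of the arrays, with differences of 0.92 to 0.99. The non-oxidative branch differed less: Taldo1, transaldolase, had 9.57 against 9.29. Tkt, transketolase, shared its probe set with Mir3076 and had 8.11 against 7.64. Rpia, ribose-5-phosphate isomerase, was at background on both arrays with 4.57 and 4.39. H6pd, which makes NADPH inside the endoplasmic reticulum, had 8.74 against 8.68, a difference whose sign turned to -0.04 under other scalings. Idh1, the cytosolic isocitrate dehydrogenase, had 14.23 against 14.36.

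Detoxifying enzymes had a median difference of 0.84 over 8 members, and 3 (37.5%) were at least 2-fold higher, against 6.47% of all genes. Nqo1, the quinone reductase used as the standard readout of NRF2, had 7.97 against a background signal of 4.98, at least 7.72-fold higher. Its relative Nqo2 had the largest difference in the other direction among all members, with 9.37 against 10.23 and a difference of -0.85. Cbr3, a carbonyl reductase, had 7.26 against 5.26, or 4-fold. Under 3 rescalings of the arrays its difference was 1.90 to 1.96, short of 4-fold. Its relative Cbr1 had 9.41 against 9.38, a difference of 0.02 that other scalings turned to as low as -0.08. Ephx1, the microsomal epoxide hydrolase, had 15.45 against 13.87, or 3.00-fold. Ugdh, which makes UDP-glucuronate for conjugation, had 10.66 against 9.79, a difference of 0.88. Hmox1, heme oxygenase 1, had 9.77 against 8.95, a difference of 0.81. Osgin1, a stress-induced growth inhibitor, had 7.42 against 7.26.

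**Figure D2:**
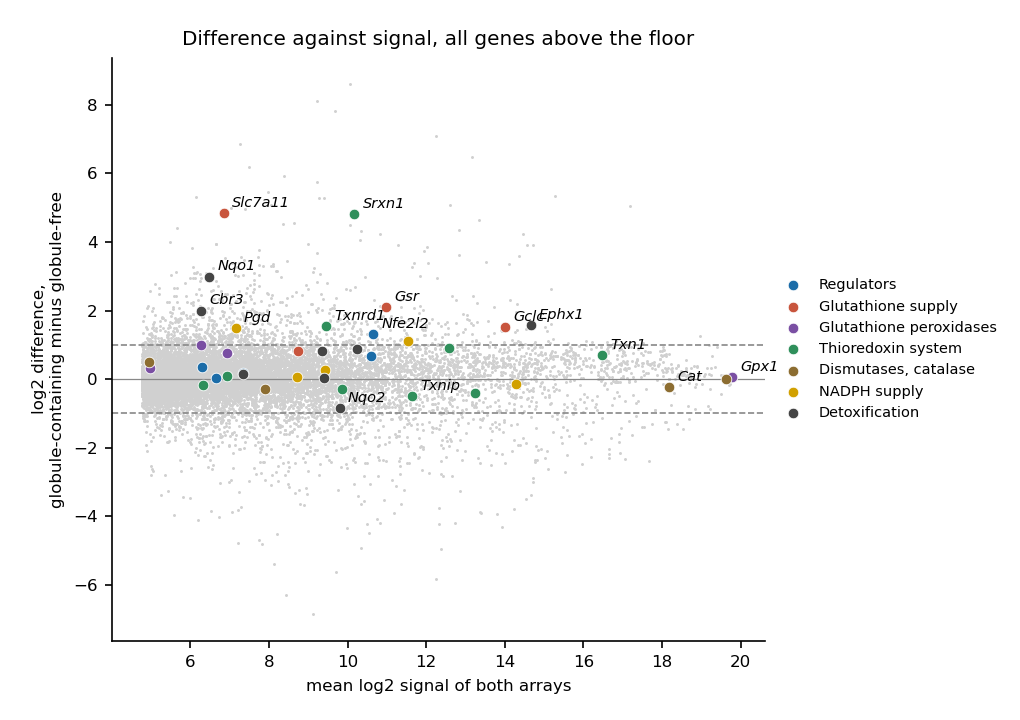
Log2 difference (globule-containing minus globule-free, vertical axis) against the mean log2 signal of both arrays (horizontal axis); grey points are all 15023 genes above the floor and coloured points the 39 members above it, by role, with dashed lines at 2-fold. The highest coloured points are Srxn1 and Slc7a11, the latter drawn at its deposited difference, which is at least 4.25 against background; no member lies below the lower dashed line, and Gpx1, Sod1 and Cat sit at the right end near 0.

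A set of 21 well-known NRF2 targets among the listed genes accounted for most of the higher signals. The 17 of them that were measured all had a positive difference, from 0.16 for Osgin1 to at least 4.25 for Slc7a11, with a median of 1.49, and 10 were at least 2-fold higher. Of the other 22 members above the floor, 1 (Nfe2l2) was at least 2-fold higher, or 4.55%, a share near the background of 6.47%, and their median was 0.05. This set was drawn up with earlier results on these arrays known, so the contrast is a description and no independent evidence of direction. By compartment, the mitochondrial members Txn2, Txnrd2, Prdx3 and Sod2 had a median of -0.22 with Prdx3 alone positive. Secreted Sod3 and Gpx3 were near background, with mean signals of 5.16 (globule-containing) and 4.75 (globule-free).

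**Figure D3:**
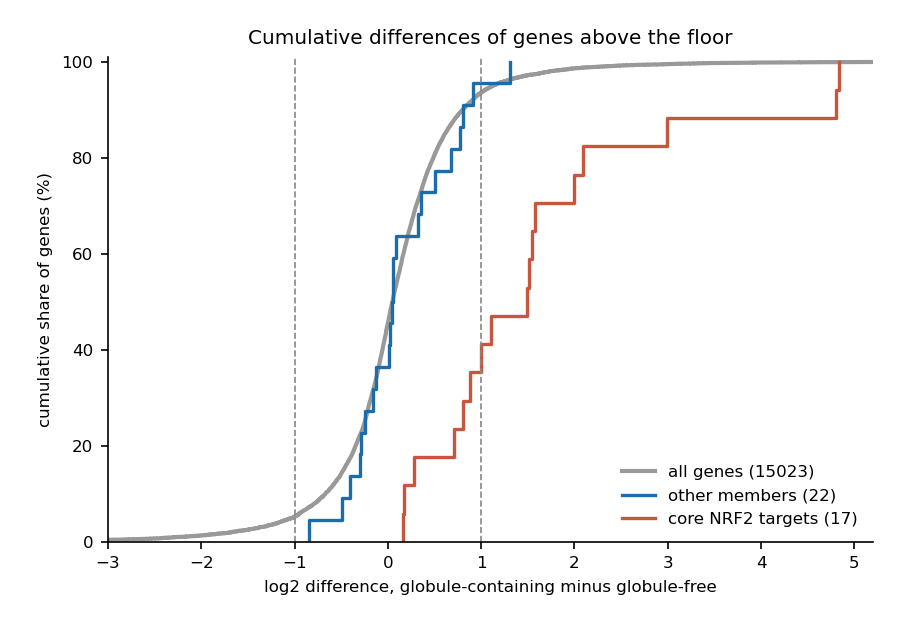
Cumulative share of genes (%, vertical axis) by log2 difference (horizontal axis, globule-containing minus globule-free) for all 15023 genes above the floor (grey), 17 well-known NRF2 targets (red) and 22 other members (blue), with dashed lines at 2-fold. The blue line runs close to the grey one, with medians of 0.05 for both, and the red line lies to the right of them with a median of 1.49.

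Other genes of these pathways, in 5 lists of 81 genes outside the members, went both ways. Of 64 above the floor, 10 (15.6%) differed upward and 8 (12.5%) downward by 2-fold or more, against 6.47% and 5.26% of all genes, and the median was 0.03. Among the 10, Abcc4 and Gpx8 had globule-free signals under the floor and passed it through their globule-containing signals. Further NRF2 targets held 7 of the 10, out of 15 measured above the floor, and 1 of these, Abcc4, was only at least 1.44-fold higher against background. Aldh3a2, which oxidises fatty aldehydes, had 13.33 against 10.33, and Aox1, an aldehyde oxidase, had 10.18 against 7.99. Blvrb, biliverdin reductase B, had 10.20 against 8.17, whereas Blvra, biliverdin reductase A, had 5.88 against 6.21. Abcc3, an exporter of conjugates, had 10.85 against 8.96. On the low side of this list stood Akr7a5, an aldehyde reductase, with 6.76 against 8.01, and Pir, with 5.73 against 6.30.

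Among other NRF2 regulators 1 of 10 genes (10.0%) reached 2-fold, a share near the 6.47% of all genes, and the median was -0.15. That gene was Sqstm1, which encodes the autophagy receptor p62 that binds KEAP1. It had 12.76 against 10.33, a difference of 2.43. The kinase gene Gsk3b, whose product marks NRF2 for degradation, had 10.78 against 9.97. Cul3, the scaffold of the KEAP1 ubiquitin ligase, had 11.61 against 11.71, and Bach1, a repressor that competes for AREs, had 9.55 against 9.88. The nuclear receptor gene Rxra had 10.27 against 11.03 and the ubiquitin ligase gene Btrc 5.94 against 6.43.

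In the wider glutathione list Slc3a2, the heavy chain that carries Slc7a11 to the membrane, had 9.96 against 7.43, a difference of 2.53. Cbs and Cth, the enzymes that make cysteine from methionine by transsulfuration, were lower in globule-containing areas, Cbs with 9.53 against 11.33 and Cth, named after its value was seen, with 14.58 against 16.25. Chac2, which degrades glutathione, had 9.85 against 11.54, and Hagh, a glyoxalase, had 10.93 against 12.28. Esd, an esterase that acts on a glutathione conjugate, had 13.45 against 12.50. In all, 1 of 13 genes of this list (7.69%) reached 2-fold upward, a share near that of all genes, and 4 (30.8%) reached it downward, and the median was -0.07.

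In the wider thioredoxin list 1 of 17 genes (5.88%) reached 2-fold upward and 2 (11.8%) downward, and the upward share is near that of all genes. Gpx8, a peroxidase of the endoplasmic reticulum, had 6.24 against a background signal of 4.73, at least 2.33-fold higher. The thioredoxin-like gene Txnl1 had 14.56 against 13.61. Sephs2, which makes the selenium donor for selenoproteins, had 10.95 against 12.67, and Msrb1, a selenoprotein that repairs methionine sulfoxide, had 10.24 against 11.43. Further NADPH and pentose phosphate genes had a median of -0.03 over 9 genes. Rpe, ribulose-phosphate epimerase, had 7.56 against 6.78 and Prps2, which makes phosphoribosyl pyrophosphate, 8.20 against 7.91, while Shpk, a sedoheptulose kinase, had 6.91 against 7.92 and Pgls, the lactonase that acts before Pgd, had 6.15 against 6.39.

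Genes of oxidant-producing enzymes also parted. Cybb, the catalytic subunit of the phagocyte NADPH oxidase, had 10.65 against 7.80 and its partner Cyba 6.33 against 5.26. Nox4, an NADPH oxidase outside phagocytes, had 8.05 against 9.73, and Aox3, an aldehyde oxidase, had 11.22 against 14.48. Of 7 genes of this list above the floor, 2 (28.6%) reached 2-fold upward and 2 (28.6%) downward, against 6.47% and 5.26% of all genes.

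Markers of other cell types and of lobular position moved on the same arrays, and their part in the members' differences was not tested. Hepatocyte markers had a mean signal of 16.76 (globule-containing) and 17.61 (globule-free) over 12 genes. Alb and Ttr, which define the cell type, stood at 19.72 or above on both arrays. Alb and Apoa2 were saturated on both arrays and Ttr on the globule-free array, so no fold is read from them. With these genes counted, 9 of the 12 had a negative difference and 3 were lower by 2-fold or more, with a median of -0.56. Arg1, arginase of the urea cycle, had the largest difference of the 12, with 12.98 against 16.35. Of 12 macrophage markers 7 (58.3%) were at least 2-fold higher, against 6.47% of all genes, with a mean signal of 9.81 against 7.85. Lyz2 had 17.96 against 12.62 and Cd68 13.80 against 10.07. The other 5 lay within 2-fold, among them Adgre1 (0.12), C1qa (0.05), C1qb (0.04) and C1qc (-0.08). For lipid-associated macrophages 6 of 9 were at least 2-fold higher, with means of 9.30 and 6.20. Trem2 of that list had only 5.30 against a background signal of 4.68. Gpnmb of that list had 13.27 against 5.16. Resident Kupffer cell markers were lower by 2-fold or more for 5 of 8 above the floor, with Clec4f at 6.96 against 10.01 and Cd5l at 7.15 against 9.83. Stellate cell and fibroblast markers were at least 2-fold higher for 11 of 13, with means of 8.77 and 6.79 over all 14, and Lum had 13.24 against 9.32 and Lrat 9.10 against 5.64, while Des was at background on both arrays. S100a8 and S100a9 were the 2 of 6 neutrophil markers at least 2-fold higher. The other 4 neutrophil markers above the floor lay within 2-fold, and Mpo and Elane of that list were at background on both arrays. All 5 cholangiocyte markers above the floor had a positive difference within 2-fold, with a median of 0.34. Epcam had the largest of these, with 5.77 against a background signal of 4.81, while Krt7 was at background on both arrays. Of 8 lymphocyte markers, 7 were at background on both arrays. Endothelial markers had 1 of 10 (10.0%) at least 2-fold higher, Eng, with 9.95 against 8.57, a share near that of all genes. Of 7 erythroid markers 2 were measured, Alas2 with 7.62 against 8.34 and Slc4a1 at background on both arrays. All 10 periportal markers had a negative difference, with Hal at 6.89 against 12.50. Pericentral markers had a median of 0.50 over 9 above the floor, with Cyp2e1 at 18.97 against 18.85. Only Gulo, at 15.41 against 13.22, reached 2-fold (11.1%), and 2 of the 9 had a negative difference, the lowest at -0.88.

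**Figure D4:**
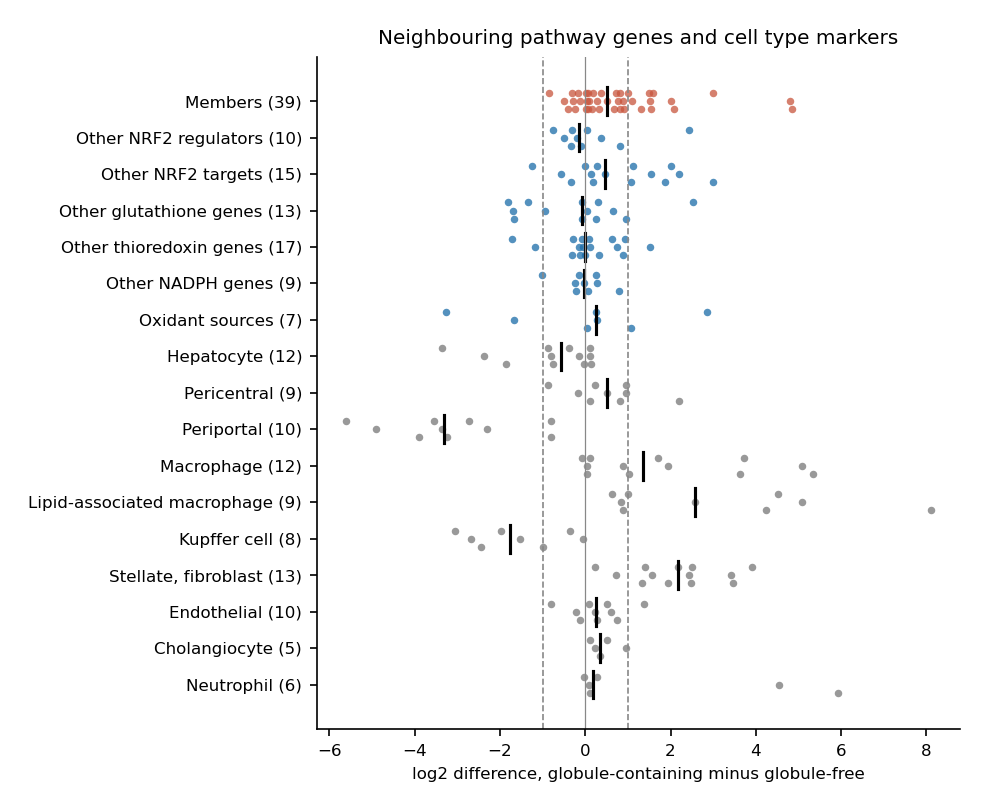
Log2 difference (horizontal axis, globule-containing minus globule-free) of each gene above the floor in the member list (red), in neighbouring pathway lists (blue) and in marker lists of cell types and lobular zones (grey); black bars are medians, dashed lines 2-fold, and the number of genes stands in brackets. Periportal genes lie to the left with a median of -3.30, stellate genes to the right with 2.17, and the 39 members have a median of 0.50 with a tail to the right.

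Over the whole series, 972 of 15023 genes differed upward and 790 downward by 2-fold or more. Centring each array on the median of its genes above the floor turned this split to 789 higher and 990 lower. Over all 72688 probe sets the deposited medians were 4.40 (globule-containing) and 4.49 (globule-free), and these were not used for the centring. The 4 hybridisation controls, bacterial and phage transcripts added from outside, had differences between -0.77 and -0.33, with the lower signal on the globule-containing array, and their part in the differences was not tested.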

How the data were processed

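RNA from laser-captured globule-containing and globule-free areas was measured on 1 array each, with 2 mice pooled per array. The authors deposited log2 signals for 72688 probe sets, made with the Transcriptome Analysis Console per the submitters' processing notes. The sources used here do not give the background correction, the normalization or the genome build. The log2 scale was read from the values, which reach 19.93. Of the probe sets, 30604 named 1 gene, 2146 several and 39938 none in the annotation used. For 22818 the Entrez ID matched RefSeq (GRCm38.p6), and 827 symbols were updated. Where a gene had several probe sets they were averaged, although each member had 1. Background was the 95th percentile over 1530 probe sets of olfactory and vomeronasal receptors, and saturation lay within 0.2 of each array's highest value. The floor was the median over probe sets naming 1 gene. There is no read depth on arrays; 1 array a group limits the precision. Members, lists and thresholds were chosen with earlier results of these data known. All members are named; from each other list, the 2 genes with the largest positive and the 2 with the largest negative difference above the floor are named, and from marker lists some of the 2 genes listed at the top and of those with the largest difference. Other genes named outside the member list (Blvra, Blvrb, Abcc3, Abcc4, Cul3, Bach1, Cth, Hagh, Apoa2, Adgre1, C1qa, C1qb, C1qc, Mpo and Elane) were chosen after their values were seen. Only the gene table and the 2-fold count were tried on simulated arrays with planted differences. The background, saturation, scaling and promoter steps were not tested in this way. Python 3.11.15, numpy 2.4.6, pandas 2.3.3 and statsmodels 0.14.6 were used. Alternatives were the floor, scaling, threshold, probe set choice and handling of background.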

Additional observations from a re-analysis of the deposited data

How the results depend on the processing

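With 1 array a group no array could be left out and no replicate spread exists. No paired analysis was possible because each group is 1 array. A value is said to move here when it changed by more than 0.17, the median gap between 2 probe sets of 1 gene over 177 genes. The count of members at least 2-fold higher stayed between 9 and 11 under the rescalings, floors, probe set choices and background handling tried, and the count at least 2-fold lower stayed at 0. At 1.5-fold the counts were 19 higher and 1 lower among members and 18 higher and 10 lower among other pathway genes, against 16% higher and 11.9% lower among all genes. At 4-fold they were 5 higher among members, and 5 higher and 0 lower among other pathway genes, against 1.42% and 1.32% of all genes. The members' 4-fold count includes Gsr and Cbr3, which fell short of 4-fold under 3 rescalings of the arrays. With the floor at the 75th percentile, which leaves fewer genes, medians were 0.68 for members (31 left), 0.68 for regulators, 0.40 for the thioredoxin system, 0.49 for detoxifying enzymes and 1.30 for well-known NRF2 targets. After quantile normalization glutathione supply had 1.61 and well-known targets 1.26. With the loess trend removed these were 1.59 and 1.24, and dismutases and catalase had -0.38. With probe sets naming several genes counted they were 1.51 and 1.05, since these bring in Gclm, Prdx1 and Tkt. The cause of the other changes was not tested. Of 246 recomputed differences of single members, 222 moved by no more than 0.17 and 24 by more, and none at least 2-fold changed sign. Centring each array on the median of its genes above the floor moved the median difference of all these genes from 0.05 to -0.06.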
